A study of Mus musculus with 25 samples.

Results

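The comparison described here is between hepatocytes of mice after 5 weeks and after 4 weeks of a NASH-inducing diet, 3 libraries against 3, chosen by the week given in the labels and column headings from a series of 25 libraries. NASH (non-alcoholic steatohepatitis) is a liver disease in which fat accumulation is joined by inflammation, cell injury and scarring. All groups were C57BL/6 mice, and the only labelled difference between the 6 libraries was the time on diet. The series also holds 5 libraries from mice on normal diet (0 weeks) and 4, 3, 4 and 3 libraries after 1, 2, 3 and 6 weeks, which served to estimate the spread and to place the step in time.

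Per the labels, liver cells were freed with collagenase, spun at low speed to collect hepatocytes, sorted by flow cytometry and lysed, and polyadenylated RNA was sequenced from its 3′ end with the QuantSeq 3′ FWD kit. No gate, diet composition, age or sex was given in the sources used here. In each week the labels number the libraries 1 to 3 without saying that they came from separate mice, so the p-values measure the spread between libraries, which may be technical. Libraries of week 4 held 8465986 to 10015751 counts and those of week 5 held 7255210 to 9148584, within a range over the series that starts at 5281143. Levels are given as CPM, the usual measure of counts relative to the library's total, here scaled for composition. Of 37085 gene symbols in the table, 11869 were tested.

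Hepatocytes make up most of the liver's mass and carry out its synthesis of plasma proteins, its urea cycle and its metabolism of fat, bile acids and foreign compounds. Around them lie Kupffer cells, which are macrophages resident in the sinusoids, sinusoidal endothelial cells, which line the capillaries, and stellate cells, which store vitamin A and deposit collagen when activated. In steatohepatitis, monocytes from the blood enter the liver and can become lipid-associated macrophages, which are known for Trem2 and Gpnmb. The low-speed pellet and the sort are meant to enrich hepatocytes, and transcripts of the other cells can still be present in the RNA.

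Hepatocyte markers were abundant in all 6 libraries. Alb, which encodes albumin, stood at 60800, 66920 and 56580 CPM in week 4 and at 46670, 52250 and 56810 CPM in week 5, so the groups overlapped. The transcription factor gene Hnf4a stood at 249 to 297 CPM and 214 to 279 CPM, again with overlap. Of the other hepatocyte markers checked, Apob, Tat and Cyp2e1 also overlapped. Ttr, Apoa1, Cps1 and Serpina1c were lower in week 5 without overlap, with Serpina1c at 8532, 8387 and 7479 CPM against 6751, 6469 and 6569 CPM. All of these markers had a negative log2 fold change, and none was called by edgeR, DESeq2 or limma voom. The label of hepatocytes therefore had its defining markers in both weeks, and markers of other liver cells were present beside them.

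The groups differed in markers of other liver cells. The summed level of 16 Kupffer cell markers was 786 to 1580 CPM in week 4 and 2230 to 2460 CPM in week 5, that of 23 markers of monocytes, macrophages and dendritic cells was 319 to 618 and 952 to 1170 CPM, and that of 23 sinusoidal endothelial markers was 872 to 1780 and 2520 to 2960 CPM. None of these 3 ranges overlapped. The 20 stellate cell and myofibroblast markers summed to 356 to 776 CPM and 583 to 1200 CPM, and these ranges did overlap. No marker of these 4 lists was at 0 across the 6 libraries. In bulk RNA, more cells of a type and more RNA per cell cannot be told apart. The part of these other cells in the results below was not tested.

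**Figure D1:**
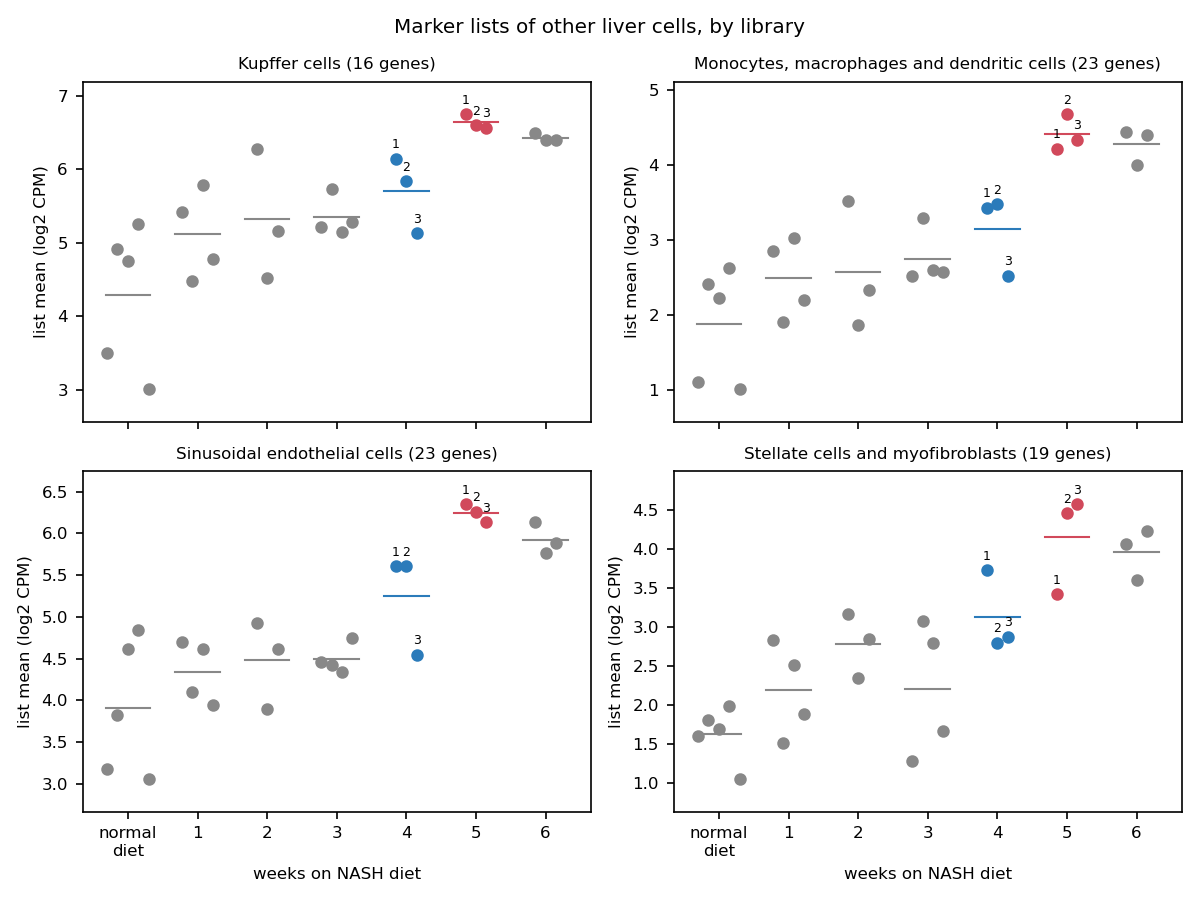
Mean level of 4 marker lists (log2 CPM, vertical axis) in each of the 25 libraries by weeks on diet (horizontal axis). Points are libraries, lines are group means, blue is week 4 and red is week 5, with the replicate number beside each point. All 3 week 5 libraries lay above all 3 week 4 libraries in 3 lists, and the stellate list overlapped.

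A score made of the mean log2 levels of the Kupffer, endothelial and stellate lists was 4.70 ± 0.49 (SD, n = 3) in week 4 and 5.68 ± 0.15 in week 5. It was 4.02 ± 0.32 (n = 4) at week 3, 5.44 ± 0.17 (n = 3) at week 6 and 3.27 ± 0.69 (n = 5) on normal diet. The first principal component of all tested genes, which held 44.9% of the variance over the series, ordered the weeks in the same way, at 17.3 ± 21.5 for week 4, 60.8 ± 5.5 for week 5 and 48.6 ± 9.31 for week 6. Week 5 libraries lay close together on both measures. Week 4 libraries were spread widely, and library 3 of week 4 stood apart from the other two. Its Kupffer mean was 5.13 against 6.14 and 5.83 (log2 CPM), its endothelial mean 4.55 against 5.61 and 5.60, and its mitochondrial share of counts 27.1% against 21.3% and 21.7%. Library 2 of week 4 stood apart in another way: 18 genes of pancreatic digestive enzymes, a list written after the values were seen, summed to 197 CPM there, against 35.5 and 14.4 CPM in the other week 4 libraries and 8.68 to 13.9 CPM in week 5.

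With edgeR's quasi-likelihood test and Benjamini-Hochberg adjustment, no gene passed an adjusted p of 0.05 between the weeks (0% of 11869 tested). The smallest adjusted p was 0.105. At an unadjusted p under 0.05 the same edgeR fit held 2095 genes (17.7%), 1346 of them higher in week 5 (11.3%) and 749 lower (6.31%). The other tools run on the same counts did call genes. DESeq2 called 110 (0.927%), of which 103 were higher (0.868%) and 7 lower (0.059%), and limma voom called 372 (3.13%), of which 352 were higher (2.97%) and 20 lower (0.169%). Both DESeq2 and limma voom called 105 genes (0.885%), 99 higher (0.834%) and 6 lower (0.0506%). The edgeR adjusted p of these 105 genes lay between 0.105 and 0.172. Without library 3 of week 4, the number called by both tools was 0, and without library 1 of week 4 it was 278. Leaving out library 2 of week 4, or library 1, 2 or 3 of week 5, gave 13, 44, 7 and 19. With the marker score as a term in the model, it was 0. The score itself differed between the weeks, so some loss of calls was built in.

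The share of genes in which all 3 libraries of one week lay beyond all 3 of the other gives the background for the lists below. All 3 week 5 libraries lay above week 4 for 1926 genes (16.2%) and below it for 1366 (11.5%). Without composition scaling, that is with library size only, these shares were 24.8% and 3.53%, since the median fold change over all genes (log2) was then 0.15 in place of -0.02. A difference of at least 2-fold was seen for 811 genes higher in week 5 (6.83%) and 79 lower (0.666%).

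**Figure D2:**
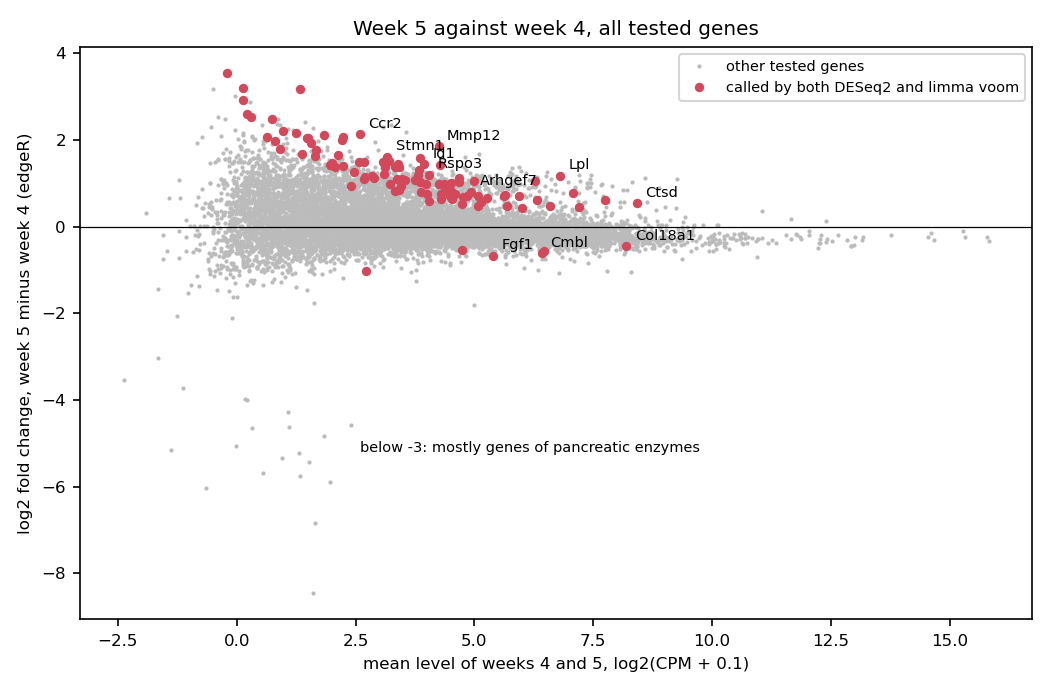
Log2 fold change of week 5 against week 4 (vertical axis) by mean level in both weeks (log2 of CPM plus a small offset, horizontal axis) for the 11869 tested genes. Red points are the 105 genes called by both DESeq2 and limma voom, 99 of them above 0. Of the 21 isolated genes below -3, 15 belong to the list of pancreatic digestive enzymes and 20 were highest in library 2 of week 4.

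Monocyte and macrophage genes stood higher in week 5. Of 23 tested markers of monocytes, macrophages and dendritic cells, 21 had no overlap between the weeks, all higher in week 5, and the median log2 fold change was 1.14, against 16.2% and -0.02 over all genes. Cx3cr1, the receptor for fractalkine on patrolling monocytes and macrophages, stood at 1.42, 2.37 and 1.43 CPM in week 4 and at 3.21, 12.3 and 6.90 CPM in week 5. Ccr2, the chemokine receptor by which monocytes leave the bone marrow, stood at 1.31, 3.25 and 1.91 CPM and then at 4.18, 16.2 and 8.56 CPM. Every week 5 library lay above every week 4 library for both genes, and library 1 of week 5 was the lowest of its group. The log2 fold change was 2.07 ± 0.42 (SE) for Cx3cr1 and 2.14 ± 0.46 for Ccr2, with an edgeR adjusted p of 0.114 for each. Both were called by DESeq2 (adjusted p = 0.00903 and 0.00965) and by limma voom (adjusted p = 0.0308 and 0.0358). The monocyte genes Ms4a6c and Ly6c2 were at most 0.986 CPM in any week 4 library and at least 1.66 CPM in every week 5 library.

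Mmp12, the macrophage elastase, had the largest fold change among the 25 genes named by a rule that was set after the values were seen (called by DESeq2 and limma voom, at least 10 CPM, no overlap). Its levels were 5.99, 14.0 and 4.29 CPM in week 4 and 14.8, 42.9 and 31.5 CPM in week 5. The lowest week 5 library was thus just above the highest week 4 library. The log2 fold change was 1.86 ± 0.43, with an adjusted p of 0.125 in edgeR, 0.0304 in DESeq2 and 0.0219 in limma voom. Mmp12 stood at 0.303 ± 0.305 CPM on normal diet, 1.16 ± 0.53 at week 3 and 27.8 ± 6.6 at week 6. Cd180, a Toll-like receptor relative of B cells and myeloid cells, stood at 7.74, 5.42 and 3.33 CPM and then at 11.6, 15.4 and 16.4 CPM (log2 fold change 1.38 ± 0.35, DESeq2 adjusted p = 0.0259). Neither gene was called by edgeR.

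Promoter sequences were set beside the genes called higher by both tools, because macrophage genes are often bound by PU.1 and inflammatory genes by AP-1. Of the 99 genes, 74 had a promoter from 250 bases before to 50 after the start in RefSeq (GRCm38.p6), as did 9232 of the 11869 tested. The PU.1 motif GAGGAAGT, searched on both strands, was present for 3 of the 74 (4.05%) and for 351 of 9232 (3.8%). The AP-1 motif TGACTCA was present for 5 of the 74 (6.76%) and for 438 of 9232 (4.74%). Both shares were near those of all tested genes. Of the 6 genes called lower, 5 had a promoter and none held either motif. The promoters of Mmp12 and Ctla2a are printed because they belong to the genes ranked 1 and 3 by fold change among those named, and hold a motif, in capitals. RefSeq gives both genes more than 1 start. The first of Mmp12, chr9:7344147-7344446 on the plus strand, held the PU.1 motif on the opposite strand at base 163, the second, chr9:7347124-7347423 on the plus strand, held the AP-1 motif on the opposite strand at base 207, and the printed one of Ctla2a, chr13:60936517-60936816 on the minus strand, held the AP-1 motif at base 63. The other Ctla2a promoter, chr13:60936576-60936875, overlaps it and holds the same match at base 122.
Mmp12, first start: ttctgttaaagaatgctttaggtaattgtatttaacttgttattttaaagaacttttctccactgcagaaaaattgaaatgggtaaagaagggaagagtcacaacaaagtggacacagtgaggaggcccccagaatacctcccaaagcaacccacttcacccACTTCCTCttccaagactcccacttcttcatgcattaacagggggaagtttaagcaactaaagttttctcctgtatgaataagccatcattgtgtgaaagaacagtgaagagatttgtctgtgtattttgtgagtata
Mmp12, second start: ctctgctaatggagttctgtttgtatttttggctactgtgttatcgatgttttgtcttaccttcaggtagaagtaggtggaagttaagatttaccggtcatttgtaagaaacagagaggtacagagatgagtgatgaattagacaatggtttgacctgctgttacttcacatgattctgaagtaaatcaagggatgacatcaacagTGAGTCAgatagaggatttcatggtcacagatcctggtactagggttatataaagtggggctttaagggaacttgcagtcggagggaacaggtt
Ctla2a: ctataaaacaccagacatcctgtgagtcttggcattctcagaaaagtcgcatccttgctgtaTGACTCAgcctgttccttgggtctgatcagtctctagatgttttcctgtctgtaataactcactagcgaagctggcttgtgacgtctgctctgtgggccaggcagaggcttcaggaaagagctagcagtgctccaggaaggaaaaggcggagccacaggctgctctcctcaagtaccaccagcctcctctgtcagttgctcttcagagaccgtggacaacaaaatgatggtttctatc
A match of letters is a description and not a measured site of binding.

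Kupffer cell markers were also apart between the weeks. Of 16 tested, 15 lay without overlap above week 4 (93.8%, against 16.2% of all genes) and the median log2 fold change was 0.86. Clec4f, a lectin found on Kupffer cells, stood at 128, 95.3 and 64.3 CPM in week 4 and at 191, 179 and 172 CPM in week 5. C1qb, a chain of complement C1q made by macrophages, stood at 136, 131 and 84.2 CPM and then at 234, 239 and 232 CPM. Week 5 libraries were nearly equal, and library 3 of week 4 was the lowest in both genes. Of the 16, edgeR, DESeq2 and limma voom each called 0 and 3 had an unadjusted edgeR p under 0.05. Leaving out library 3 of week 4 cannot lower the count without overlap, which stayed at 15 of 16, against 20.8% of all genes. The median was then 0.63. With all libraries, the smallest p belonged to Slc40a1 (ferroportin, the iron exporter), at 145, 135 and 108 CPM against 212, 194 and 175 CPM (log2 fold change 0.58 ± 0.20, edgeR adjusted p = 0.183).

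Genes of lysosomes and lipid-associated macrophages were higher in week 5 for 13 of 23 tested members without overlap (56.5%, against 16.2% of all genes). They were lower for 0, and the median was 0.48. Gpnmb, a glycoprotein of lipid-laden macrophages, stood at 1.64, 4.83 and 1.91 CPM and then at 5.16, 26.3 and 10.5 CPM. Trem2, the lipid receptor of these macrophages, stood at 1.20, 2.07 and 0.715 CPM and then at 2.14, 8.81 and 6.07 CPM. Cd63, a tetraspanin of late endosomes, stood at 9.92, 10.7 and 8.70 CPM and then at 10.9, 34.1 and 25 CPM. In all 3 genes library 1 of week 5 was close to the highest week 4 library, whereas libraries 2 and 3 were well above it. Ctsd, the lysosomal protease cathepsin D, was far more abundant and more even, at 285, 304 and 243 CPM against 371, 449 and 392 CPM. Its log2 fold change was 0.54 ± 0.14, and it was called by DESeq2 (adjusted p = 0.0173) and limma voom (adjusted p = 0.0358) but not by edgeR (adjusted p = 0.146), the only one of the 23 called by both tools.

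Chemokine and inflammatory signalling genes were higher without overlap for 10 of 23 members (43.5%, against 16.2% of all genes) and lower for 0, with a median of 1.04. Ccl4, a chemokine for monocytes and lymphocytes, stood at 2.62, 1.28 and 0.834 CPM and then at 7.20, 4.29 and 5.71 CPM. Nfkbia, the inhibitor that NF-kB itself induces, stood at 240, 253 and 155 CPM and then at 399, 303 and 264 CPM. Cxcl2, a neutrophil chemokine, ranged from 2.26 to 17.8 CPM in week 4 and from 17.2 to 52.6 CPM in week 5, so the groups overlapped. Limma voom called 3 of the 23 members, and DESeq2 and edgeR called 0 of them at an adjusted p of 0.05; 11 of the 23 had an unadjusted edgeR p under 0.05.

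Antigen presentation genes were higher without overlap for 9 of 15 members (60%, against 16.2% of all genes), with a median of 0.99. The MHC class II peptide-loading gene H2-DMb1 stood at 10.8, 6.31 and 4.64 CPM and then at 17.0, 22.9 and 16.2 CPM. Ctss, the protease cathepsin S, which cuts the invariant chain, stood at 142, 102 and 76.5 CPM and then at 246, 262 and 225 CPM. Both genes kept the weeks apart, with the lowest value again in library 3 of week 4. Interferon response genes had a smaller median of 0.26, with 9 of 24 higher (37.5%) and 0 lower without overlap. Ifi44, an interferon-induced gene, stood at 12.9, 11.7 and 9.53 CPM against 22.9, 24.2 and 19.3 CPM, called by limma voom (adjusted p = 0.0345) and not by DESeq2 (adjusted p = 0.0639) or edgeR (adjusted p = 0.171).

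Sinusoidal endothelial markers were higher without overlap for 21 of 23 members (91.3%, against 16.2% of all genes), with a median of 0.96. Ramp2, the co-receptor for adrenomedullin, stood at 19.1, 17.1 and 10.1 CPM in week 4 and at 31.1, 33.8 and 32 CPM in week 5. Stab2, a scavenger receptor of sinusoidal endothelium, stood at 49.7, 40.5 and 25.6 CPM and then at 78.3, 69.9 and 71.1 CPM. Library 3 of week 4 was the lowest for both. Leaving it out cannot lower the counts without overlap, which stayed at 21 of 23 for endothelial and for monocyte and macrophage markers. The share over all genes was then 20.8%, and the medians of the lists were 0.70 and 0.88. Wnt2 and Rspo3 encode signals that endothelial cells around the central vein give to hepatocytes, and both were called by DESeq2 and limma voom. Wnt2 stood at 10.7, 8.97 and 4.76 CPM against 18.8, 22.8 and 19.1 CPM (log2 fold change 1.31 ± 0.35, DESeq2 adjusted p = 0.041, edgeR adjusted p = 0.158). Rspo3 stood at 13.1, 8.48 and 8.34 CPM against 18, 26.9 and 24.0 CPM (log2 fold change 1.20 ± 0.29, DESeq2 adjusted p = 0.0173, edgeR adjusted p = 0.125).

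Genes of the hepatocytes around the central vein had mostly negative fold changes and an uneven week 5. Of 19 pericentral genes tested, 0 were without overlap in either direction, against 16.2% higher and 11.5% lower over all genes. Of the 19, 18 had a negative fold change and the median was -0.36. Cyp2e1, the ethanol-oxidising cytochrome P450, stood at 1205, 1298 and 1317 CPM in week 4 and at 1577, 611 and 487 CPM in week 5. Glul, glutamine synthetase of the innermost hepatocytes, stood at 730, 685 and 662 CPM and then at 1037, 362 and 496 CPM. Oat, ornithine aminotransferase, stood at 318, 306 and 251 CPM and then at 396, 138 and 177 CPM. In all 3 genes library 1 of week 5 was the highest of the 6 libraries and libraries 2 and 3 of week 5 were the lowest. The list means of the week 5 libraries were 6.81, 5.57 and 5.72 (log2 CPM), a spread wider than that of week 4 (6.37 to 6.62). Without library 1, 2 or 3 of week 5 the median of the list was -0.97, -0.09 or -0.17. Periportal genes, 11 of 20 of which are also in other lists, had a median of -0.32. Without overlap, 1 of 20 was higher and 5 lower, against 16.2% and 11.5% over all genes. Without composition scaling (library size only) 0 were lower and the median was -0.15, and without library 1 of week 5 the median was -0.19. The urea cycle enzyme Cps1 stood at 870, 1017 and 958 CPM against 583, 794 and 639 CPM.

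Library 1 of week 5 also stood apart in the stellate and collagen genes. Of 19 stellate and myofibroblast markers, only 1 (Col1a1) was without overlap (5.26%, against 16.2% of all genes higher). All 19 had a positive fold change, however, and the median was 0.92. Without library 1 of week 4 the median was 1.43. Col1a1, a chain of type I collagen, stood at 4.90, 3.65 and 4.05 CPM in week 4 and at 5.55, 26.8 and 25.2 CPM in week 5. Col3a1, the chain of type III collagen, stood at 23.6, 14.8 and 10.5 CPM and then at 19.8, 75.9 and 61.5 CPM. Libraries 2 and 3 of week 5 were several-fold above week 4, and library 1 was within or beside the week 4 range. Lrat, which stores vitamin A in stellate cells, stood at 28.0, 13.6 and 15.7 CPM and then at 22.6, 37.3 and 41.9 CPM, so that library 1 of week 4 lay above library 1 of week 5. Among 23 extracellular matrix and TGF-beta genes, 11 were higher (47.8%) and 0 lower without overlap (median 0.98), and Mmp12 was the only one called by both DESeq2 and limma voom.

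**Figure D3:**
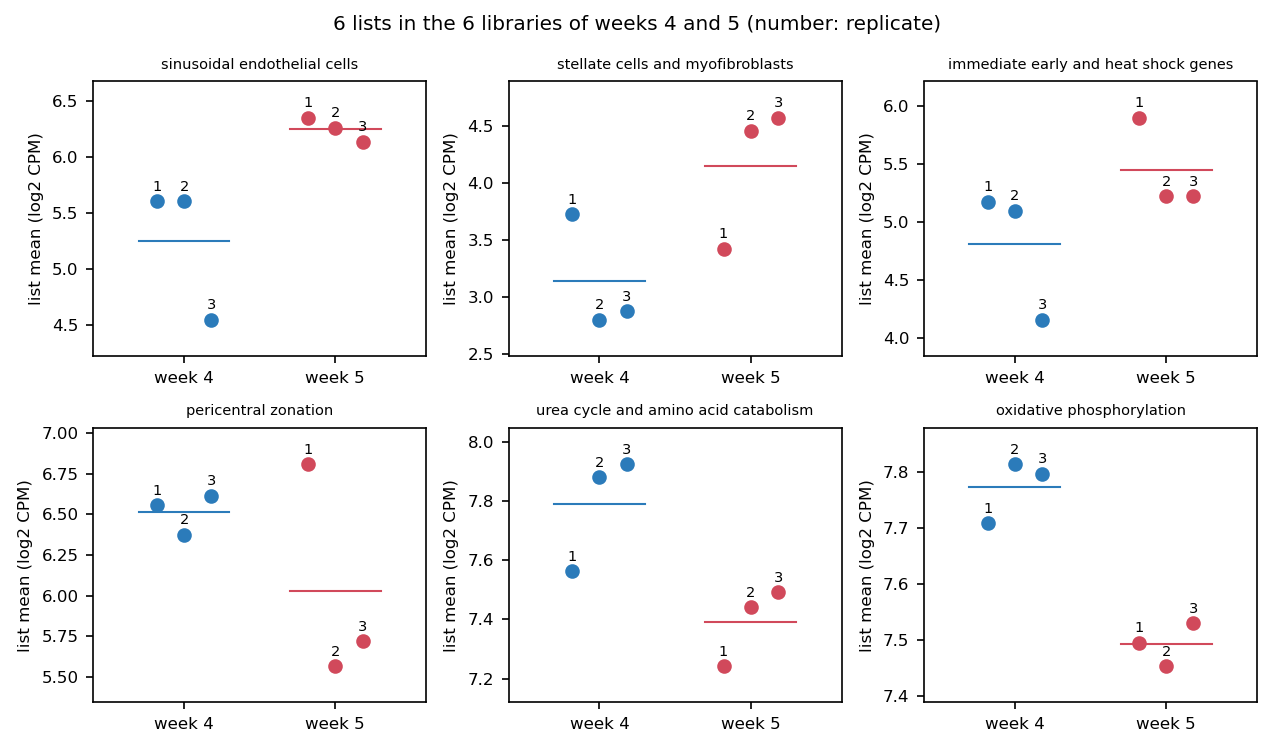
Mean level of 6 lists (log2 CPM, vertical axes) in the 3 libraries of week 4 (blue) and the 3 of week 5 (red), with replicate numbers beside the points and lines at the group means. Library 3 of week 4 is lowest in endothelial and immediate early genes, and library 1 of week 5 is low in stellate genes and high in pericentral genes.

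Cell cycle genes were higher in week 5. Of 20 tested, 14 were higher (70%, against 16.2% of all genes) and 0 lower without overlap, with a median of 0.90. Mki67, a marker of cycling cells, stood at 2.18, 2.66 and 2.02 CPM in week 4 and at 7.59, 6.31 and 9.28 CPM in week 5. Stmn1, a regulator of microtubules in mitosis, stood at 4.90, 5.82 and 2.26 CPM and then at 10.9, 10.5 and 18.9 CPM. The weeks were apart in both. Mcm3, a subunit of the helicase that starts DNA replication, stood at 6.65, 8.67 and 3.93 CPM against 10.5, 15.6 and 15.7 CPM, and was the one list member called by both DESeq2 (adjusted p = 0.0394) and limma voom (adjusted p = 0.0321). Stmn1, Cenpa (the histone variant of centromeres) and Hmgb2 (a chromatin protein of proliferating cells), outside the list, were also called by both tools, with log2 fold changes of 1.62 ± 0.37, 1.13 ± 0.29 and 1.10 ± 0.27, and none of them by edgeR (adjusted p = 0.114, 0.146 and 0.133). Levels were low throughout, and which cells carried these transcripts was not tested.

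The list of immediate early and heat shock genes, which respond within minutes to growth factors, heat and other stress, had a median of 0.67. It was higher without overlap for 8 of 22 members (36.4%, against 16.2% of all genes) and lower for 0. Without library 3 of week 4 the median was 0.43, and without library 1 of week 5 it was 0.31. Ier3 stood at 7.08, 6.31 and 3.33 CPM in week 4 and at 16.9, 13.8 and 15.2 CPM in week 5 (log2 fold change 1.45 ± 0.33, adjusted p = 0.00981 in DESeq2, 0.0199 in limma voom and 0.114 in edgeR). Junb, a subunit of AP-1, stood at 128, 134 and 63.5 CPM and then at 222, 163 and 170 CPM. The low value of library 3 of week 4 was seen across the list, whose mean was 4.16 there against 5.17 and 5.10 (log2 CPM), and library 1 of week 5 had the highest mean, 5.90. Ier5, a growth-factor-induced gene outside the list, stood at 20.1, 16.6 and 11.4 CPM against 45.2, 32.4 and 26.9 CPM. Id1, a target of BMP signals in the liver, stood at 11.8, 7.20 and 5.48 CPM against 22.6, 25.4 and 19.0 CPM (log2 fold change 1.45 ± 0.38, DESeq2 adjusted p = 0.0307, edgeR adjusted p = 0.158). The iron handling list, which holds Id1, was mixed, with 3 of 16 higher (18.8%) and 4 lower (25%) without overlap.

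**Figure D4:**
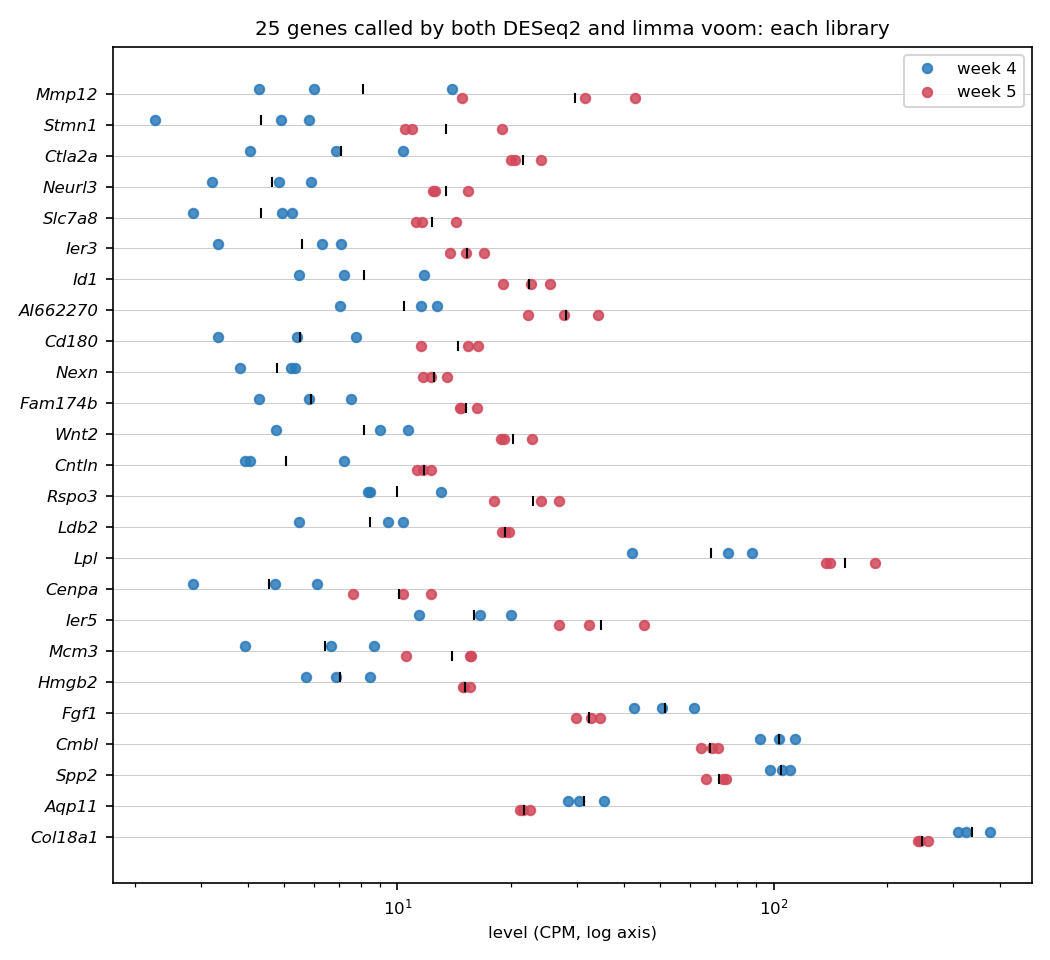
Level (CPM, log axis) in each library for the 25 genes named by the rule above. Blue points are week 4, red points are week 5, and black ticks are group means. The weeks do not overlap for any of the 25 genes, which the rule required, and 5 genes were lower in week 5.

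Lipid uptake and droplet genes were mixed. Of 16 tested, 3 were higher (18.8%, against 16.2% of all genes) and 0 lower without overlap, with a median of 0.17. Without library 3 of week 4, 5 were higher (31.2%, against 20.8% of all genes), and with library size only 6 (37.5%, against 24.8%). The median was 0.39 without library 3 of week 5, 0.09 without library 1 of week 4 or library 1 of week 5, and 0.11 without library 2 of week 4. The 3 genes were Lpl, Hilpda and Fabp4. Lpl, lipoprotein lipase, stood at 87.4, 75.7 and 42.0 CPM in week 4 and at 138, 186 and 141 CPM in week 5. Hilpda, a droplet protein that inhibits lipolysis, stood at 10.7, 8.87 and 6.31 CPM and then at 23.5, 13.8 and 17.5 CPM. DESeq2 (adjusted p = 0.0357 and 0.0173) and limma voom (0.0463 and 0.0248) called both, with log2 fold changes of 1.18 ± 0.34 and 1.08 ± 0.26, and edgeR called neither (adjusted p = 0.169 and 0.133). Cd36, a fatty acid receptor, overlapped between the weeks, at 44.9 to 65.0 CPM and 59.0 to 84.2 CPM. Macrophages and endothelial cells also carry Lpl, Fabp4 and Cd36, and their part was not tested.

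Fatty acid synthesis genes had a median of -0.23, with 1 of 19 higher (5.26%) and 4 lower (21.1%) without overlap, against 16.2% and 11.5% over all genes. Under library size only, 2 were higher (10.5%, against 24.8% of all genes) and 1 lower (5.26%, against 3.53%), and the median was -0.05. Without library 2 of week 4 the median was -0.15, without library 2 of week 5 it was -0.05 and without library 3 of week 5 it was -0.40. Elovl6, which lengthens saturated fatty acids, stood at 173, 182 and 168 CPM in week 4 and at 76.5, 72.8 and 151 CPM in week 5. Thrsp, a lipogenic nuclear protein, stood at 399, 409 and 471 CPM and then at 111, 210 and 295 CPM. Week 4 was even and week 5 uneven for both genes, and with the spread of all groups the edgeR adjusted p was 0.494 and 0.42. Cholesterol synthesis genes, already low on the diet, had a median of -0.27, with 6 of 24 lower (25%) and 0 higher. Under library size only, 0 of these were lower and the median was -0.09. Sqle, squalene epoxidase, overlapped at 4.34 to 5.36 CPM and 2.82 to 4.40 CPM, against 63.3 ± 7.0 CPM on normal diet.

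Nuclear genes of oxidative phosphorylation stood lower in week 5 by small amounts. Of 24 tested, 19 were lower and 0 higher without overlap, against 11.5% and 16.2% over all genes, all 24 fold changes were negative and the median was -0.28. Atp5b, the catalytic beta subunit of ATP synthase, stood at 560, 548 and 580 CPM in week 4 and at 446, 430 and 432 CPM in week 5. Cox5b, a subunit of cytochrome c oxidase, stood at 277, 285 and 271 CPM and then at 217, 203 and 226 CPM. The libraries within each week were close for both genes. The log2 fold changes were -0.37 ± 0.11 and -0.37 ± 0.12, with edgeR adjusted p = 0.172 and 0.174. Of the 24 genes, none was called by edgeR, DESeq2 or limma voom, and 14 had an unadjusted edgeR p under 0.05. With library size only, 6 rather than 19 were lower without overlap (25%, against 3.53% of all genes). The median was then -0.11, against 0.15 over all genes.

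Amino acid catabolism and the urea cycle had 14 of 24 members lower (58.3%, against 11.5% of all genes) and 0 higher without overlap, with a median of -0.41. Hpd, which degrades tyrosine, stood at 1146, 1192 and 1347 CPM in week 4 and at 893, 823 and 795 CPM in week 5. Hgd, which acts later on the same route, stood at 366, 406 and 390 CPM and then at 255, 289 and 294 CPM. Hpd was called by limma voom alone (log2 fold change -0.55 ± 0.15, adjusted p = 0.0455), with 0.0581 in DESeq2 and 0.16 in edgeR. Methionine, choline and one-carbon genes had 12 of 20 lower (60%) and 0 higher, with a median of -0.34. Bhmt, which remethylates homocysteine with betaine, stood at 2156, 2062 and 3095 CPM against 1362, 1608 and 1563 CPM. With library size only, 8 members of each of these 2 lists were lower without overlap (33.3% and 40%, against 3.53% of all genes). In the methionine list, 2 were then higher (10%, against 24.8% of all genes).

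Secreted proteins followed the same direction. Complement and coagulation genes had 16 of 24 lower (66.7%, against 11.5% of all genes) and 0 higher without overlap (median -0.31). Other secreted hepatocyte proteins had 15 of 24 lower (62.5%) and 0 higher (median -0.30). Serpinc1, antithrombin, stood at 960, 1114 and 1207 CPM in week 4 and at 868, 846 and 866 CPM in week 5. F11, coagulation factor XI, stood at 29.8, 25.9 and 30.4 CPM and then at 13.3, 19.3 and 15.5 CPM. Apoa2, an apolipoprotein of HDL, stood at 7854, 9425 and 9571 CPM and then at 6889, 6199 and 6493 CPM. Every week 5 library was below every week 4 library in these 3 genes, and no tool called any of them. With library size only, 6 and 5 members of these lists were lower without overlap (25% and 20.8%, against 3.53% of all genes). Acute phase proteins had 6 of 21 lower (28.6%) and 1 higher (median -0.26). Under library size only, 3 of them were lower (14.3%) and the median was -0.08. The median was -0.16 without library 1 of week 5. C-reactive protein (Crp) stood at 337, 349 and 320 CPM against 285, 247 and 261 CPM.

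Among detoxification and bile acid genes, the cytochrome P450 and conjugation list had 9 of 24 lower (37.5%) and 1 higher without overlap (median -0.44). The bile acid list had 7 of 21 lower (33.3%) and 1 higher (median -0.32). Over all genes the shares were 11.5% lower and 16.2% higher. Ugt2b1, a glucuronosyltransferase, stood at 632, 712 and 794 CPM in week 4 and at 579, 431 and 439 CPM in week 5. Slc10a1, which takes up bile acids from blood, stood at 314, 312 and 310 CPM and then at 233, 195 and 228 CPM. Baat, which conjugates bile acids to amino acids, stood at 167, 170 and 204 CPM and then at 130, 128 and 139 CPM. All 3 were apart between the weeks, and none was called by edgeR, DESeq2 or limma voom. With library size only, 4 members of the cytochrome P450 list and 3 of the bile acid list were lower without overlap. These were 16.7% and 14.3%, against 3.53% of all genes, and the medians were -0.27 and -0.16. The glucose list had 6 of 21 lower (28.6%) and 0 higher (median -0.32), and 2 lower (9.52%) with library size only (median -0.16). Its smallest p belonged to Pcx, pyruvate carboxylase, at 144, 148 and 171 CPM against 112, 110 and 117 CPM.

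DESeq2 and limma voom called 5 of the named genes lower in week 5. Fgf1, a growth factor of metabolic tissues, stood at 42.5, 50.4 and 61.3 CPM in week 4 and at 34.5, 32.6 and 29.9 CPM in week 5. Its log2 fold change was -0.67 ± 0.14, with an adjusted p of 0.0129 in DESeq2, 0.0239 in limma voom and 0.114 in edgeR. It stood at 63.4 ± 6.4 CPM at week 3 and 41.8 ± 6.0 CPM at week 6, so week 5 had the lowest mean of these 4 weeks. Cmbl, a hydrolase of the liver, stood at 91.9, 103 and 114 CPM against 64.0, 71.3 and 68.5 CPM, and Spp2, a secreted phosphoprotein, at 111, 97.8 and 105 CPM against 74.8, 73.5 and 66.2 CPM. Aqp11, an aquaporin inside the cell, stood at 30.4, 28.4 and 35.4 CPM against 21.5, 21.2 and 22.5 CPM. Col18a1, the collagen that gives rise to endostatin and is made by hepatocytes, stood at 310, 326 and 377 CPM against 242, 245 and 257 CPM. Col18a1 thus stood opposite in direction to Col1a1 and Col3a1.

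Outside the lists, the genes with the smallest edgeR p were Arhgef7 and Nexn. Arhgef7, an exchange factor for Rac and Cdc42, stood at 23.5, 23.1 and 19.5 CPM in week 4 and at 40.0, 39.9 and 36.4 CPM in week 5. Nexn, an actin-binding protein, stood at 5.34, 5.22 and 3.81 CPM and then at 11.7, 12.3 and 13.6 CPM. Their log2 fold changes were 0.81 ± 0.15 and 1.38 ± 0.26, the edgeR adjusted p was 0.105 for both, and the DESeq2 adjusted p was 0.000216 and 0.000445. Both genes had tight groups in both weeks. Kitl, the ligand of Kit, stood at 3.05, 3.06 and 3.45 CPM against 9.54, 6.43 and 7.02 CPM (log2 fold change 1.27 ± 0.29, edgeR adjusted p = 0.114). Further genes called higher by both tools were Ctla2a, an inhibitor of cathepsin-like proteases (7.09 ± 3.16 to 21.6 ± 2.2 CPM, SD, n = 3), the ubiquitin ligase gene Neurl3 (4.64 ± 1.34 to 13.5 ± 1.6 CPM) and the amino acid transporter gene Slc7a8 (4.34 ± 1.29 to 12.4 ± 1.7 CPM). AI662270, Fam174b, Cntln and Ldb2 complete the named genes, with log2 fold changes of 1.42, 1.37, 1.21 and 1.19.

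Injury and YAP target genes held members of both directions. Of 18 tested, 8 were higher (44.4%, against 16.2% over all genes) and 3 lower without overlap, with a median of 0.54. S100a11, a calcium-binding protein, stood at 12.9, 16.3 and 8.46 CPM against 18.3, 34.9 and 29.6 CPM, whereas Krt18, a keratin of hepatocytes, stood at 95.6, 106 and 95.0 CPM against 64.3, 81.1 and 87.2 CPM. No member was called by both DESeq2 and limma voom.

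The remaining lists had at most 4 members without overlap in either direction, against 16.2% higher and 11.5% lower over all genes. Shares higher in week 5 were above this for p53 targets (25%) and the iron list (18.8%). Shares lower in week 5 were above it for iron (25%), circadian (21.1%), stress (19%), fatty acid oxidation (17.4%) and female-biased genes (12.5%). The other shares were below those of all genes. Fatty acid oxidation (1 of 23 higher and 4 lower), the endoplasmic reticulum and integrated stress list (0 of 21 and 4), hepatocyte transcription factors (0 of 20 and 2), p53 targets (3 of 12 and 0), mitochondrially encoded transcripts (0 of 10 and 1), male-biased genes (0 of 20 and 1) and female-biased genes (1 of 8 and 1) had medians of -0.20, -0.21, -0.26, 0.15, -0.23, -0.32 and 0.51. Several of these medians rest on single libraries. Without library 3 of week 4 the transcription factor, p53 and mitochondrially encoded medians were -0.13, 0.07 and -0.14, without library 2 of week 5 the transcription factor median was -0.15, without library 3 of week 5 it was -0.14, and without library 2 of week 4 the p53 median was 0.27. The male-biased median ranged from -0.60 (without library 1 of week 5) to -0.13 (without library 1 of week 4), and the female-biased median from 0.17 (without library 1 of week 5) to 0.77 (without library 2 of week 4). Ribosomal proteins (0 of 24 and 0), glutathione and NRF2 genes (2 of 24 and 2), circadian genes (0 of 19 and 4) and the iron list had medians of -0.02, -0.05, -0.10 and -0.15, and with library size only these 4 medians were 0.14, 0.12, 0.09 and 0.02. Their direction thus depended on the scaling. Without library 3 of week 4, 6 of 19 circadian genes were higher and 4 lower without overlap, and the median was -0.06, while without library 3 of week 5 it was 0.01. The ribosomal median was 0.02 without library 1 of week 4 and 0.01 without library 2, and the glutathione median was 0.03 without library 2 of week 4. Nfe2l2, which encodes NRF2, stood at 97.5, 83.7 and 97.5 CPM against 110, 131 and 116 CPM, and the clock gene Per2 stood at 24.3, 14.8 and 15.4 CPM against 8.27, 8.69 and 10.3 CPM.

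The members with the smallest p in the lists not yet illustrated were not called by edgeR either. Sardh, which oxidises sarcosine, stood at 224 to 294 CPM in week 4 and at 159 to 221 CPM in week 5 (log2 fold change -0.45 ± 0.15, adjusted p = 0.172). Ebp, a sterol isomerase, stood at 205 to 267 and 172 to 198 CPM (-0.42 ± 0.14, adjusted p = 0.178), and Hlf, a clock-controlled transcription factor, at 57.3 to 66.9 and 41.0 to 52.0 CPM (-0.48 ± 0.14, adjusted p = 0.171). These 3 genes were apart between the weeks. Scd2, a stearoyl-CoA desaturase, stood at 2.02 to 5.23 and 6.81 to 10.7 CPM and was called by limma voom alone (adjusted p = 0.0334). Ucp2, a mitochondrial carrier, stood at 11.3 to 27.1 and 41.1 to 54.0 CPM (log2 fold change 1.10 ± 0.42). Of the others, Calr (a chaperone), Cebpa (a hepatocyte transcription factor) and the neutrophil receptor gene Csf3r had log2 fold changes of -0.31, -0.29 and 0.81 and no overlap, as did the platelet integrin gene Itga2b at 1.10. Slco1a1 (an organic anion carrier), Cyp2c50, mt-Nd6, Rpl4, Atp6v0d2, Spp1 (osteopontin) and the p53 target Eda2r overlapped between the weeks.

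**Figure D5:**
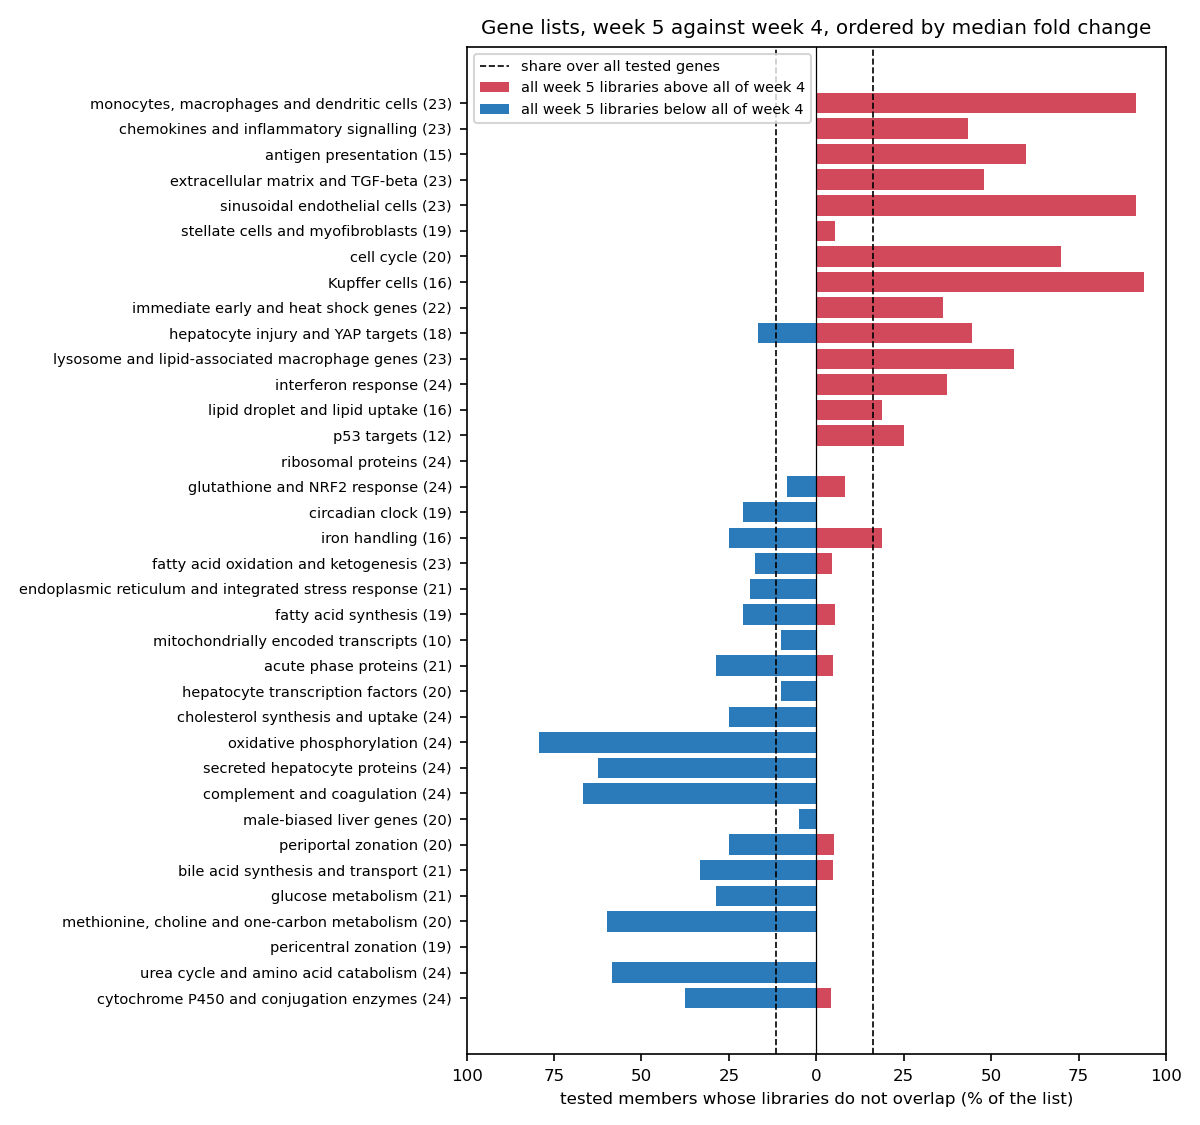
Share of the tested members of each list (horizontal axis, % of the list) whose 3 week 5 libraries all lay above (red, to the right) or below (blue, to the left) the 3 week 4 libraries, with the number tested in parentheses. Dashed lines mark the shares over all tested genes, 16.2% and 11.5%. The female-biased, cholangiocyte, lymphocyte, neutrophil, and erythroid and platelet lists, which had few tested members, are not drawn. Macrophage and endothelial lists are at the top right and oxidative phosphorylation extends furthest to the left.

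With the marker score as a term in the model, the list medians were mostly nearer 0. Some were further from it, such as those of fatty acid synthesis (-0.41) and of glutathione and NRF2 genes (-0.09). The Kupffer, endothelial and stellate medians, whose lists make up the score, were -0.26, 0.15 and 0.02. Those of monocytes, macrophages and dendritic cells, chemokines, antigen presentation, extracellular matrix, injury and YAP targets, and lysosomes were 0.003, 0.05, -0.20, 0.09, 0.04 and 0.12. The cell cycle median was 0.31 and the immediate early and heat shock median 0.29. In the other direction, oxidative phosphorylation, the urea cycle list and secreted hepatocyte proteins had medians of -0.24, -0.26 and -0.21.

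Markers of cells that are rarer in such a preparation stayed low. Lymphocyte markers summed to 21.8 to 28.8 CPM in week 4 and 45.7 to 53.2 CPM in week 5, only 4 of 20 were high enough to test, and Trac, the constant chain of the T cell receptor, was at 0 in all 6 libraries. Most of these sums, and of their rise, came from the pan-leukocyte gene Ptprc, one of the 4. It stood at 23.3, 21.5 and 15 CPM against 41.7, 41.7 and 39.0 CPM. Of the other tested members, Ccl5 and Ighm were higher in week 5 without overlap, and Cd4 overlapped at 1.08 to 1.43 and 0.953 to 1.56 CPM. Neutrophil markers summed to 3.45 to 4.58 and 4.38 to 7.26 CPM, with Ly6g at 0. Cholangiocyte markers summed to 31.5 to 46.8 and 32.4 to 60.1 CPM, and erythroid and platelet markers to 20.5 to 52.5 and 32.7 to 80.5 CPM with Slc4a1 among the markers at 0. These last 3 sums overlapped between the weeks.

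To ask whether the step from week 4 to week 5 differed from the steps around it, the difference of steps was tested gene by gene. Against the step from week 5 to week 6, edgeR, DESeq2 and limma voom each called 0 genes at an adjusted p of 0.05, with 1093 (9.21%) at an unadjusted edgeR p under 0.05 and a smallest edgeR adjusted p of 0.538. Against the step from week 3 to week 4, all 3 tools also called 0, with 534 (4.5%) and 0.958. Among the genes described above, Wnt2 had means of 4.17, 8.14, 20.2 and 15.6 CPM at weeks 3, 4, 5 and 6, Mki67 of 2.29, 2.29, 7.73 and 7.22 CPM, and Atp5b of 497, 563, 436 and 434 CPM. Week 6 was thus near week 5 for Mki67 and Atp5b, while for Wnt2 it lay between weeks 4 and 5. Ier3 had means of 3.59, 5.58, 15.3 and 9.88 CPM, with week 5 the highest of the 4. These steps share libraries with the comparison itself, so the order of the weeks is a description.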

How the data were processed

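The authors deposited a table of unnormalized read counts, with a row for each gene symbol and a column for each of the 25 libraries (whole numbers throughout). The tools named in the submitters' processing notes are STAR 2.7.1a, cutadapt and FastQC, and the build is GRCm39. The counting tool was not given in the sources used here. In R 4.3.3, edgeR 4.0.16 was fitted to all 25 libraries in 1 model of 7 groups (TMM factors, filterByExpr by group, robust quasi-likelihood F-test, 18 residual degrees of freedom) with the contrast of week 5 minus week 4 and the differences of steps. The threshold for a call was 0.05 for p adjusted by Benjamini-Hochberg over 11869 genes. DESeq2 1.42.0 and limma 3.58.1 (voom) were run as alternatives on the same model. The fits were tested on simulated data.

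List means are mean log2 CPM (prior count 2) of the tested members. The lists share genes, so they are not separate results. For example, 11 of 20 periportal, 8 of 24 cytochrome P450 and 6 of 24 urea cycle members are also in other lists. No 2 libraries of the same week were copies of each other. The 41 gene lists and the comparison itself were chosen with earlier results of these data known, so lists are described by counts and medians without a test. From each list the member with the smallest p was named, and other list members were chosen for their function or with their values seen. No gene met the planned rule for called genes, and 25 genes called by both DESeq2 and limma voom, with at least 10 CPM in the higher week and no overlap, were named instead: the 20 largest rises and all 5 falls. Promoters came from RefSeq (GRCm38.p6) and were matched by symbol, not by coordinates of the counts' build. A few genes of the lists are not reported here by name. Alternatives were other scalings, filters, tools, models and leaving out each library.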

Additional observations from a re-analysis of the deposited data

Results flagged for a closer look

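Of 60 groups of values in the libraries of normal diet and week 3 that were checked for a library far from the others, 2 were found, and chance alone gives about 1 in 20. Ier5 stood at 14.4 CPM in 1 normal diet library and at 7.68 to 8.89 CPM in the other 4. Hmgb2 stood at 12.6 CPM in 1 normal diet library and at 5.46 to 7.02 CPM in the others. Neither group enters the comparison of week 5 with week 4 other than through the shared spread. Groups of 3 libraries, such as weeks 4 and 5, were not checked in this way.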

How the results depend on the processing

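With edgeR, 0 genes were called under 5 of the planned choices: DESeq2's size factors, no filter, the stricter filter (at least 5 CPM in 3 libraries), the replicate block and the marker score as a term. With library size only, 14 were called (14 higher). With DESeq2 the count was 110 (103 higher, 7 lower), with limma voom 372 (352 and 20), and with only the compared groups in the edgeR model 94 (83 and 11). Leaving out each library in turn gave 0 to 1 genes (0 to 1 higher), the 1 without library 1 of week 5, and 0 to 1 for the difference from the step to week 6, the 1 without library 2 of week 5.

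The overlap of DESeq2 and limma voom, an alternative chosen after seeing the data, held 105 genes (99 higher, 6 lower). It held 403 (401 and 2) with library size only, 27 (26 and 1) with no filter, 121 (113 and 8) with the stricter filter, 140 (124 and 16) with only the compared groups and 0 (0 and 0) with the marker score as a term. Of the 105 genes, 26, 89 and 40 were among those called with no filter, the stricter filter and only the compared groups. Leaving out each library gave 0 to 278 genes (0 to 240 higher, 0 to 38 lower). The difference of the marker score, 0.98, ranged from 0.73 to 1.21 without single libraries, and was lowest without library 3 of week 4. The cause of these dependences was not tested.

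Of the 41 list medians, 21 moved by more than the spread between libraries with library size only (4 to the opposite sign) and 20 with the marker score as a term. Under the latter, 4 of the 41 medians had the opposite sign. Cholesterol synthesis then went from -0.27 to -0.06 and lipid droplets from 0.17 to 0.03. With the marker score as a term, 9 of the genes followed had the opposite sign, with log2 fold changes of -0.15 (C1qb), -0.23 (Eda2r), -0.19 (Egr2), -0.11 (Fcna), -0.09 (H2-DMa), -0.029 (H2-DMb1), -0.018 (Mrc1), -0.072 (Ptprc) and 0.002 (Rpl4). Rpl4 also reversed with library size only (0.008). None of these genes was called in either fit. C1qb, Fcna and Mrc1 belong to lists that make up the score, so a shift of their fold changes towards 0 was built in. The score itself differed between the weeks, so the term also takes up part of the step. The signs under this term thus cannot decide how these genes changed.

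The labels number the libraries 1 to 3 in both weeks. Deviations from the group means of same-numbered libraries correlated at -0.009, 0.04 and 0.037, and those of differently numbered libraries at -0.084 to 0.06. No pairing by number was seen, but 3 libraries a week cannot exclude a shared day or batch. With the replicate number as a block, edgeR called 0 genes and the overlap of DESeq2 and limma voom held 73 (69 higher, 4 lower), 61 of them among the 105.

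Genes of a few CPM, such as Ccr2, Trem2 and Mki67, rest on few counts per library, and 3 libraries a week limit every comparison.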

Other observations

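Cfd, which encodes adipsin (complement factor D, known from adipose tissue), was among the few abundant genes that were lower in week 5 by more than 2-fold, and was picked out after its values were seen. It stood at 50.8, 48.1 and 49.1 CPM in week 4 and at 16.6, 15.5 and 10.1 CPM in week 5, with means of 0.743 ± 0.492 CPM on normal diet, 29.8 ± 18.9 CPM at week 3 and 35.0 ± 30.0 CPM at week 6. Week 4 and week 5 were each tight, while the neighbouring weeks were spread widely. Its log2 fold change was -1.80 ± 0.65, with an adjusted p of 0.191 in edgeR, 0.168 in DESeq2 and 0.124 in limma voom.

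The 18 genes of pancreatic digestive enzymes (trypsins, chymotrypsins, carboxypeptidases, elastases, lipases and related secreted enzymes) were not confined to library 2 of week 4. Their summed level was 316 and 236 CPM in libraries 3 and 4 of week 1, 378 CPM in library 3 of week 2 and 197 CPM in library 2 of week 4, with 17 of the 18 genes detected in each. In the other 21 libraries the sum was between 8.68 and 37.5 CPM. Of the 18 genes, 16 were abundant enough to be tested, and their fold changes between weeks 4 and 5 rest on library 2 of week 4.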
